A study of Mus musculus with 3 samples.

Results

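The CC chemokines that draw monocytes and eosinophils into tissue were followed through the healing of mouse skin wounds, together with *Ccr2*, the receptor by which inflammatory monocytes answer *Ccl2* and *Ccl7*. The set holds 9 of the 32285 genes counted on each slide, taken by symbol: *Ccl2*, *Ccl3*, *Ccl4*, *Ccl6*, *Ccl7*, *Ccl8*, *Ccl9*, *Ccl11* and *Ccr2*. All 9 had UMIs under tissue in every section.

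The measurements are spatial transcriptomes (Visium, a slide of barcoded spots that capture polyadenylated RNA from the section above them) of wounded skin from C57BL/6J mice. A single section each came from Day 3, Day 7 and Day 14 post injury, with no genetic change or drug. According to the methods of the study the wounds were full-thickness punch excisions of the dorsal skin of adult male mice. No unwounded section was among the samples analysed here, so a level on Day 3 could not be set against intact skin. Because each day is 1 section of 1 wound, no test between days was possible, and differences between days cannot be told apart from differences between animals, sections or slides. A spot can hold several cells, and fewer cells of a type cannot be told apart from less RNA per cell.

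The Day 3, Day 7 and Day 14 sections had 664, 549 and 697 spots under marked tissue, with 1772259, 4442962 and 4611723 UMIs (unique molecular identifiers, 1 for each captured RNA molecule). Day 3 was the shallowest section, with a median of 1513 UMIs per spot against 6687 and 4827. Much RNA lay in spots that were not marked as tissue, namely 1703210, 6457066 and 4715272 UMIs, and 674, 2118 and 1780 of those unmarked spots held at least 500 UMIs. Levels are given as CPM (UMIs of the gene per 1000000 UMIs of all genes in the same spots) with exact Poisson 95% intervals, which cover counting error only. The slides share all 4992 spot barcodes by design, and each slide was handled separately.

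CC chemokines are small secreted proteins that bind to matrix and cell surfaces and guide leukocytes that carry the matching receptors. In a skin wound the neutrophils of the first hours and days are followed by blood monocytes, which enter through the Ccr2 axis and mature into macrophages. Eotaxins such as Ccl11 act on eosinophils through Ccr3, and the inflammatory proteins Ccl3 and Ccl4 act through Ccr1 and other receptors.

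The 8 ligands fall into a pair of gene clusters on chromosome 11 (positions from GENCODE M21 on GRCm38, matched by gene identifier; all are protein coding and none overlaps another of the listed genes). *Ccl2* (chr11:82035571-82037453, plus strand), *Ccl7* (chr11:82045712-82047525, plus), *Ccl11* (chr11:82057823-82062955, plus) and *Ccl8* (chr11:82115185-82116799, plus) lie within 81.2 kb, with *Ccl12* between *Ccl11* and *Ccl8*. *Ccl9* (chr11:83572919-83578636, minus), *Ccl6* (chr11:83587882-83593087, minus), *Ccl3* (chr11:83647844-83649355, minus) and *Ccl4* (chr11:83662584-83664683, plus) lie within 91.8 kb. *Ccr2* (chr9:124101950-124113557, plus) lies apart from the ligands.

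RefSeq promoter windows on GRCm38.p6 were matched for 5 of the 9 genes (*Ccl3*, *Ccl6*, *Ccl8*, *Ccl9* and *Ccr2*). The 250 bases before the start of *Ccl6* (chr11:83593088-83593337, minus strand), *Ccl9* (chr11:83578637-83578886, minus) and *Ccl8* (chr11:82114935-82115184, plus) are shown, 5′ to 3′. They were chosen because *Ccl6* and *Ccl9* had similar values over the days and in the Day 3 tissue. *Ccl8* was highest in another region of the same section, as described further on. Capitals in *Ccl9* mark an AP-1 site (TGANTCA) that begins 53 bases before the start and an NF-kappaB consensus that begins 35 bases before it.
Ccl6: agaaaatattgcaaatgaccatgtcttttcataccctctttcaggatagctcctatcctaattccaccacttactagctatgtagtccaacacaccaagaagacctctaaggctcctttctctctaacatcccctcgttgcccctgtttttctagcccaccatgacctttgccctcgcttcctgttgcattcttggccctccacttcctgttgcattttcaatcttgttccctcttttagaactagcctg
Ccl9: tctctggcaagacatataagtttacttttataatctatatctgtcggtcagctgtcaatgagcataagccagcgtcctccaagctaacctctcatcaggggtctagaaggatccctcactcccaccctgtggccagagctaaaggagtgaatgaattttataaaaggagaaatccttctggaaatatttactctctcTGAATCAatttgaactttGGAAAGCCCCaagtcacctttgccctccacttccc
Ccl8: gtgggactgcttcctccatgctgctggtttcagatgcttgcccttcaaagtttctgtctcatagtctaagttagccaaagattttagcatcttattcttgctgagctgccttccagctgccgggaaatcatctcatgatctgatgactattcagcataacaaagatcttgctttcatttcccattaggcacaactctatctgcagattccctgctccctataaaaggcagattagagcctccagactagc
The 2 marked motifs do not overlap each other. Neither motif, nor the STAT patterns TTCNNNGAA and TTCNNNNGAA, was found on either strand of the windows of *Ccl3*, *Ccl6*, *Ccl8* and *Ccr2*, which says only that these letters are not in 250 bases. Of 32851 RefSeq windows of the same length, 7.25% hold the NF-kappaB consensus, 6.75% the AP-1 site, 7.02% TTCNNNGAA and 5.85% TTCNNNNGAA. The longest run that *Ccl6* and *Ccl9* share is the 13 bases gccctccacttcc, which begins 55 bases before the start in *Ccl6* and 14 bases before it in *Ccl9*.

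The first question was how the level of each gene under tissue differed between days. All 9 genes had their highest CPM on Day 3, and 8 of them, all but *Ccl11*, were at least 2-fold lower on Day 7 and again on Day 14 than on Day 3. Among all genes with at least 20 UMIs over both sections, 7.89% were at least 2-fold lower on Day 7 than on Day 3 (989 of 12541) and 8.14% on Day 14 (1047 of 12866). The 2 comparisons share the Day 3 section. The median log2 ratio over those genes was 0.04 on Day 7 and 0.19 on Day 14, and 0.13 for Day 14 over Day 7. Between Day 7 and Day 14, *Ccl6* and *Ccl9* of the 8 members that passed the count minimum were at least 2-fold lower on Day 14, against 8.45% of genes (1133 of 13412).

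**Figure D1:**
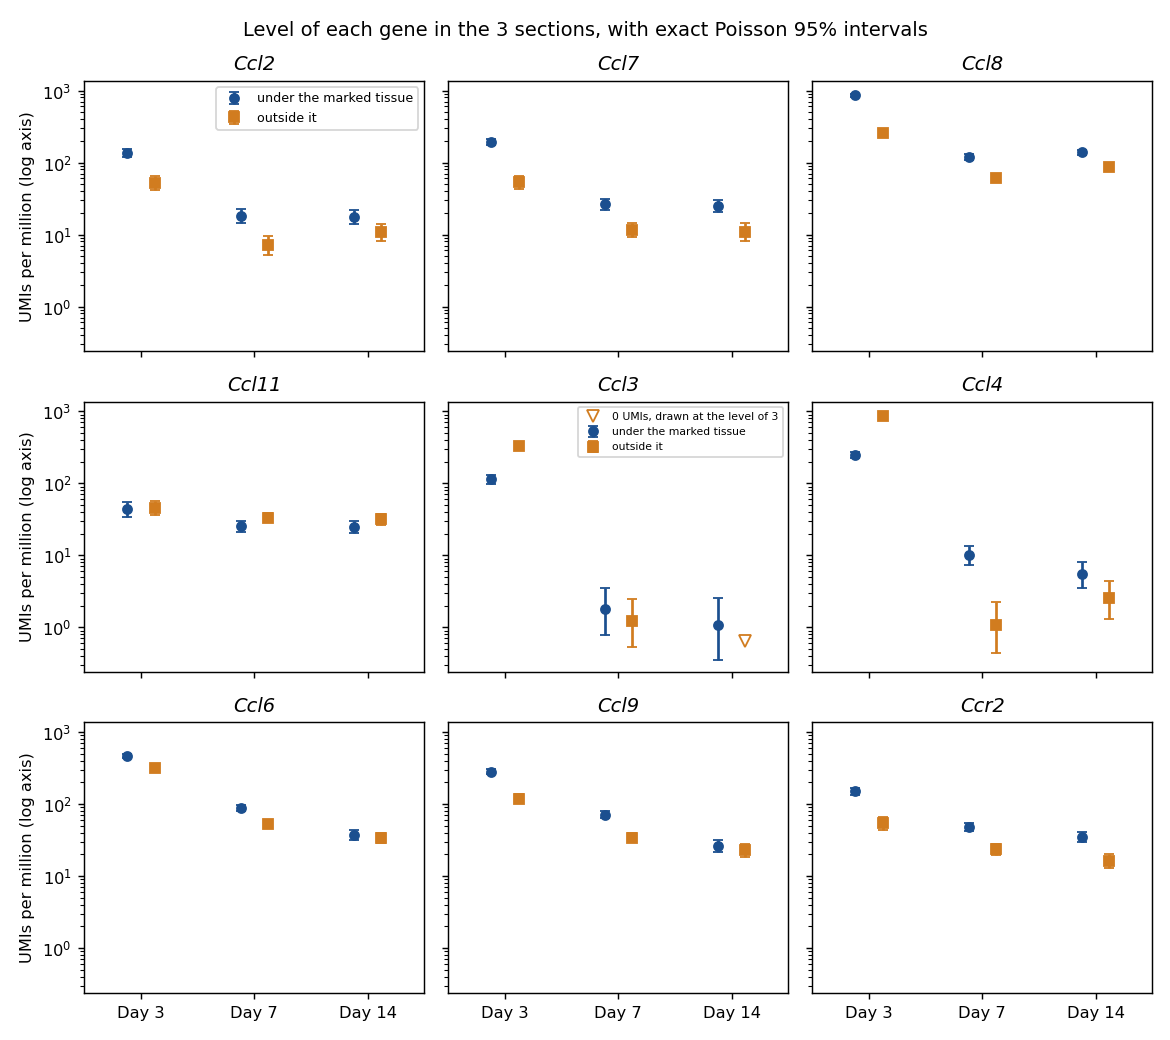
CPM under marked tissue and outside it on Days 3, 7 and 14 for the 9 genes, on a log axis, with exact Poisson 95% intervals as bars (counting error only, 1 section per day); an open triangle marks 0 UMIs, drawn at the level of 3. Under tissue every gene is highest on Day 3, *Ccl11* has the smallest difference between days (43.4 CPM on Day 3 and 24.7 on Day 14), and on Day 3 *Ccl3* and *Ccl4* are higher outside the marked tissue than under it.

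*Ccl2* and *Ccl7*, the monocyte chemoattractants that act through Ccr2, had closely matching courses. *Ccl2* was at 136 CPM on Day 3 (119 to 154, from 241 UMIs), 18.0 on Day 7 (14.3 to 22.4, 80 UMIs) and 17.3 on Day 14 (13.8 to 21.6, 80 UMIs). *Ccl7* was at 194 CPM on Day 3 (174 to 215, 343 UMIs), 26.3 on Day 7 (21.8 to 31.6, 117 UMIs) and 24.7 on Day 14 (20.4 to 29.7, 114 UMIs). Their Day 3 intervals lie far above those of the later days, and the intervals of Day 7 and Day 14 overlap for both genes. *Ccl2* was 7.55-fold lower on Day 7 than on Day 3 (5.84 to 9.85) and *Ccl7* 7.35-fold lower (5.94 to 9.14). From Day 7 to Day 14 the ratio was 0.963 for *Ccl2* (0.698 to 1.33) and 0.939 for *Ccl7* (0.719 to 1.23), so a difference between these days was not detectable at this depth.

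*Ccr2*, their receptor, differed less between days than its ligands. It was at 149 CPM on Day 3 (132 to 168, 264 UMIs), 48.2 on Day 7 (41.9 to 55.1, 214 UMIs) and 35.1 on Day 14 (29.9 to 41, 162 UMIs). It was 3.09-fold lower on Day 7 than on Day 3 (2.57 to 3.72) and 1.37-fold lower on Day 14 than on Day 7, and the 3 intervals do not overlap. Beside it, the summed inflammatory monocyte markers (*Ly6c2*, *Plac8*, *Chil3*, *Ms4a4c*, *Ifitm6* and *Gpr141*) stood at 219, 77.0 and 61.8 CPM, so they were highest on Day 3 too. Their part in the *Ccr2* values was not tested.

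*Ccl8*, a monocyte chemoattractant that in mice acts on Ccr8, was at 858 CPM on Day 3 (816 to 902, 1521 UMIs), 120.0 on Day 7 (110.0 to 131, 533 UMIs) and 139 on Day 14 (129 to 150.4, 642 UMIs). It was 7.15-fold lower on Day 7 than on Day 3 (6.48 to 7.91). Unlike the other 8 genes it had a higher point value on Day 14 than on Day 7, with a ratio of 1.16 (1.03 to 1.30), beside the median log2 ratio of 0.13 over all genes between those sections. *Ccr8* itself had 0, 1 and 0 UMIs under tissue. A count of 0 allows up to 3 UMIs.

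*Ccl11*, eotaxin 1, was the gene with the smallest difference between days. It was at 43.4 CPM on Day 3 (34.3 to 54.3, 77 UMIs), 25.2 on Day 7 (20.8 to 30.3, 112 UMIs) and 24.7 on Day 14 (20.4 to 29.7, 114 UMIs). The Day 3 interval lies above the other 2, which overlap. The difference was 1.72-fold on Day 7 (1.27 to 2.32) and 1.76-fold on Day 14 (1.30 to 2.37), in both cases under the 2-fold limit. Markers of the eosinophils that eotaxins recruit were hardly seen in the counts, which cannot show how many of these cells were present. The 6 eosinophil markers (*Siglecf*, *Prg2*, *Epx*, *Ear1*, *Ear6* and *Il5ra*) summed to 1, 4 and 5 UMIs under tissue, with 5, 4 and 5 of the 6 genes at 0, and *Ccr3* had 1, 0 and 3 UMIs. Of the cell types in the name of the set, the counts thus show monocyte and macrophage markers and next to no eosinophil markers.

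The steepest courses were those of *Ccl3* and *Ccl4*, macrophage inflammatory proteins 1 alpha and 1 beta. *Ccl3* was at 113 CPM on Day 3 (98.3 to 130.2, 201 UMIs), 1.80 on Day 7 (0.777 to 3.55, 8 UMIs) and 1.08 on Day 14 (0.352 to 2.53, 5 UMIs). *Ccl4* was at 248 CPM on Day 3 (226 to 273, 440 UMIs), 10.1 on Day 7 (7.39 to 13.6, 45 UMIs) and 5.42 on Day 14 (3.51 to 8.0, 25 UMIs). *Ccl3* was thus close to the counting floor of 3 UMIs after Day 3, while *Ccl4* stayed above it. *Ccl3* was 63.0-fold lower on Day 7 than on Day 3 (31.4 to 148) and *Ccl4* 24.5-fold lower (18.0 to 34.1). Over all spots of the slides, marked or not, the differences were larger, 149-fold for *Ccl3* and 116-fold for *Ccl4*. Of the 45 UMIs of *Ccl4* on Day 7, 7 came from 1 spot. The summed neutrophil markers (*S100a8*, *S100a9*, *Retnlg*, *Csf3r*, *Cxcr2*, *Il1r2*, *Clec4d*, *Hdc*, *Mmp9* and *Trem1*) stood at 2242, 121 and 121 CPM, and their part in the values of *Ccl3* and *Ccl4* was not tested.

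*Ccl6* and *Ccl9*, neighbouring genes whose products act on Ccr1, were lower again on Day 14 than on Day 7, as were *Ccr2* and, with few UMIs, *Ccl4* (ratio 0.535, 0.315 to 0.892). *Ccl6* was at 462 CPM on Day 3 (431 to 495, 819 UMIs), 88.7 on Day 7 (80.1 to 97.9, 394 UMIs) and 37.5 on Day 14 (32.1 to 43.5, 173 UMIs). *Ccl9* was at 282 CPM on Day 3 (257 to 307, 499 UMIs), 71.3 on Day 7 (63.7 to 79.7, 317 UMIs) and 26.2 on Day 14 (21.8 to 31.4, 121 UMIs). For each gene the 3 intervals are apart and stand in the order of the days. *Ccl6* was 5.21-fold lower on Day 7 than on Day 3 (4.62 to 5.89) and a further 2.36-fold lower on Day 14 (1.97 to 2.84). *Ccl9* was 3.95-fold lower on Day 7 (3.42 to 4.56) and a further 2.72-fold lower on Day 14 (2.20 to 3.38). The 2-fold calls between Day 7 and Day 14 are not firm: by the mean of spot CPM the ratio of *Ccl9* was 0.529, and over all spots of the slide that of *Ccl6* was 0.534. The summed macrophage markers (among them *Lyz2*, *Cd68*, *Csf1r* and *C1qa*) were at 4221, 2747 and 1098 CPM, also in the order of the days.

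Because the Day 3 spots were shallower, the share of spots with a UMI of a gene was compared after every spot had been thinned to 1000 UMIs, which left 426, 525 and 679 spots and left out 238, 24 and 18. After thinning, *Ccl8* was found in 42.0% of spots in the Day 3 section, 10.3% in the Day 7 section and 9.87% in the Day 14 section, whereas without thinning the shares were 45.2%, 49.0% and 47.3%. *Ccl7* was found in 16.2%, 3.05% and 2.5%, and *Ccl2* in 9.39%, 2.10% and 2.21% of thinned spots. *Ccr2* was found in 13.6%, 5.14% and 3.98% of them. For 8 genes, all but *Ccl11*, the exact binomial 95% interval of the Day 3 share lay above those of both later days. *Ccl11* was found in 4.46%, 2.10% and 2.21% of thinned spots. The higher Day 3 levels therefore came with more spots that held the genes, and not only with a few rich spots. Within the Day 3 section the muscle-rich region gives a comparison for these shares. Macrophage markers were lower there but present, at 1379 CPM against 4221 in the section. *Ccl2* was found in 0.746% of its 134 thinned spots against 13.4% of the other 292, and *Ccl8* in 14.9% against 54.5%. Before thinning, the median depth of the spots was 1962 UMIs in the muscle-rich region and 2930 elsewhere. *Ccl11* had shares with overlapping intervals in muscle-rich spots and elsewhere (5.97% and 3.77%). On Day 7 *Ccl11* was found in 0 of 75 thinned muscle-rich spots and 2.44% of the other 450, again with overlapping intervals. The Day 7 intervals also overlapped for *Ccl2* (0% and 2.44%) and *Ccl8* (9.33% and 10.4%). The study reports *Ccl11* as specific to wound fibroblasts. Fibroblast markers were at 7218 CPM in the muscle-rich Day 3 region, against 50691 in the section. Which cells hold *Ccl11* in muscle-rich spots was not tested.

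**Figure D2:**
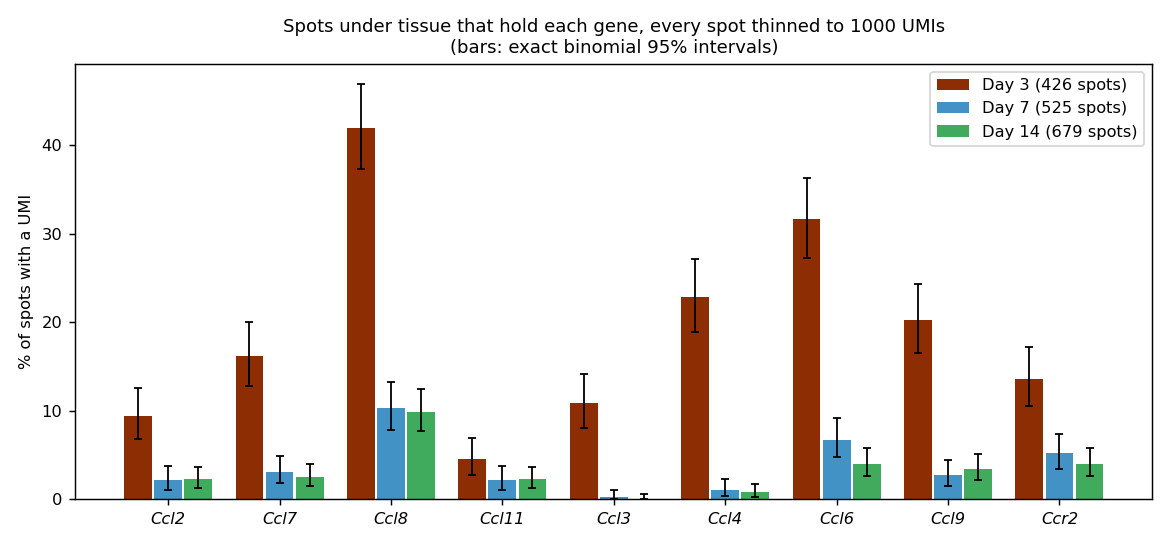
Percent of spots under tissue with at least 1 UMI of each gene after thinning every spot to 1000 UMIs, by day, with exact binomial 95% intervals (426, 525 and 679 spots). The Day 3 columns of 8 genes stand above both later days, *Ccl8* at 42.0% against 10.3% and 9.87%, while the intervals of *Ccl11* lie close together.

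The next comparison was between spots under marked tissue and the unmarked spots of the same slide. Between 40.8% and 51.0% of each slide's UMIs lay under marked tissue. On Day 3, *Ccl3* and *Ccl4* were at least 2-fold higher outside, against 3.75% of all genes counted (412 of 10974), and *Ccl2*, *Ccl7*, *Ccl8*, *Ccl9* and *Ccr2* were at least 2-fold lower outside, against 18.5% of genes. On Day 7 *Ccl2*, *Ccl7*, *Ccl4*, *Ccl9* and *Ccr2* of 8 members counted were lower outside, against 10.5% of genes, and on Day 14 *Ccl7*, *Ccl4* and *Ccr2* of 8, against 16.0% of genes. The median log2 ratio of outside over under tissue was -0.40, -0.39 and -0.55 over all genes counted, and the log2 ratios of single genes are to be read relative to it. With this shift taken out by TMM factors, 3, 1 and 0 members remained at least 2-fold lower outside on Days 3, 7 and 14.

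On the Day 3 slide *Ccl4* was at 869 CPM outside (1480 UMIs) and 248 under tissue, a ratio of 3.50 (3.14 to 3.90), and *Ccl3* was at 327 CPM outside (557 UMIs) and 113 under tissue, a ratio of 2.88 (2.45 to 3.41). Both genes thus had most of their Day 3 molecules in spots that the tissue mark leaves out. On the later slides the outside levels were low. *Ccl4* was at 1.08 CPM outside on Day 7 (7 UMIs) and 2.54 on Day 14 (12 UMIs), and *Ccl3* was at 1.24 on Day 7 (8 UMIs) and was not seen in any of the 4295 unmarked spots of Day 14, which allows up to 3 UMIs. The ratio of *Ccl4* was 0.107 on Day 7 (0.0407 to 0.239) and 0.469 on Day 14 (0.215 to 0.970), so its direction on Day 3 was opposite to that on the later slides. Limiting the comparison to spots with at least 500 UMIs brought the Day 3 ratios to 2.24 for *Ccl4* and 1.74 for *Ccl3*.

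The unmarked Day 3 molecules of *Ccl4* had a median position of x 49.5 and y 36.4 (in units of the spot pitch), against x 23.0 and y 56.3 for all unmarked UMIs, and the 10 richest spots held 20.1% of them, against 7.12% for all genes. Within 5 spot pitches of marked tissue lay 40.3% of them, close to the 41.7% of all genes. The richest spot of *Ccl4* on the slide (52 UMIs) was also the richest of *Ccl3* (15 UMIs), held 3400 UMIs in all and lay 3.61 pitches from the nearest marked spot. The neutrophil markers were at 4919 CPM outside and 2242 under tissue on that slide, a ratio of 2.19, and *Il1b*, which encodes interleukin 1 beta, was among the genes at least 2-fold higher outside. The macrophage markers had the opposite order, with 1599 CPM outside and 4221 under tissue, as had the resident macrophage (ratio 0.454) and inflammatory monocyte markers (0.437). The repair macrophage markers were higher outside, at 953 and 817 CPM (ratio 1.17, 1.09 to 1.25). Their unmarked UMIs had a median position of x 46.0 and y 37.2, and those of the neutrophil markers x 48.5 and y 36.4. Skeletal muscle (2.12), fat (1.75) and red blood cell markers (2.87) were among other lists higher outside. Whether neutrophils or other cells hold the *Ccl3* and *Ccl4* molecules was not tested.

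For the other members except *Ccl11* the pooled outside level on Day 3 was below that under tissue. *Ccl2* was at 52.3 CPM outside, *Ccl7* at 52.8, *Ccl8* at 257, *Ccl6* at 312, *Ccl9* at 119 and *Ccr2* at 54.6. The ratio was lowest for *Ccl7* (0.273) and *Ccl8* (0.299). For *Ccl2* and *Ccl6* the direction depends on the scale: the ratios of the pooled counts were 0.384 and 0.675, but the mean of spot CPM, in which a shallow spot weighs as much as a deep one, gave 1.40 and 1.06. *Ccl11* was not lower outside on any slide, with ratios of 1.05 (0.759 to 1.46), 1.32 (1.05 to 1.68) and 1.27 (0.988 to 1.64), which stand above the median of all genes, and with TMM factors they were 1.37, 1.72 and 1.74.

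To see where in the wound section the genes lay, the spots of each section were clustered into 5 regions with the members and all listed marker genes left out. On Day 3 a region of 102 spots was led by *Cxcl5*, *Timp1*, *Hmox1* and *Apln*. It had the highest level of the granulation tissue markers, 1.85 times that of the section, and held 26.0% of the UMIs. Its inflammatory monocyte markers were 2.18 times and its neutrophil markers 1.82 times the section's level. A 2nd region of 118 spots, led by *Aldh3a1*, *Cidea* and *Defb8*, held 44.6% of the UMIs and was raised in sebaceous gland markers (1.84 times), epidermis markers (1.74) and fibroblast markers (1.61). A 3rd region of 155 spots, with *Pi16*, *Gda* and *Plac8* among its leading genes, was raised in inflammatory monocyte markers (2.20 times) and resident macrophage markers (2.0). A 4th region of 178 spots was muscle-rich, and a 5th of 111 spots held only 6478 UMIs in all and is not described.

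The Ccr2 ligands and their receptor were highest in the *Cxcl5*-led region. *Ccl2* was at 336 CPM there and 65.6 in the rest of the section, a ratio of 5.12 (3.91 to 6.74), with 155 of its 241 UMIs. *Ccl7* was at 439.7 CPM against 107, a ratio of 4.12 (3.30 to 5.14). *Ccr2* had a ratio of 3.68 (2.86 to 4.73). Receptor and ligands were thus raised in the same region, though in single spots *Ccr2* correlated with *Ccl2* at 0.28 and with *Ccl7* at 0.14. With 4 regions in place of 5, the region highest in granulation tissue markers had 206 spots and was led by *Pi16*, not by *Cxcl5*. The ratios there were 1.64 for *Ccl2*, 2.34 for *Ccl7* and 3.08 for *Ccr2*. It held 57 of the *Ccl2* UMIs (203 CPM). A region of 164 spots, raised in epidermis markers, held 182 of them (160.1 CPM, ratio 1.72). With 6 regions the *Cxcl5*-led region had ratios of 5.17, 4.06 and 3.66. Among the spots, 68 held both *Ccl2* and *Ccl7*, which is 58.6% of the spots with *Ccl2* and 46.3% of those with *Ccl7*, and 69 held both *Ccl2* and *Ccr2* (59.5% and 46.6%). Such spots were deep (median 6347 and 6491 UMIs), and the more abundant *Ccl8* was found in 78.4% of the spots with *Ccl2*. Of all 664 marked spots, 147 held *Ccl7*, 148 held *Ccr2* and 300 held *Ccl8*. The part of depth and abundance in these shares was not tested.

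*Ccl9* and *Ccl6* were also raised in the *Cxcl5*-led region, by 3.78 (3.16 to 4.54) and 2.79 (2.43 to 3.21). *Ccl3* and *Ccl4* were raised by 2.04 (1.52 to 2.72) and 1.89 (1.56 to 2.30). The order of these genes depends on the division. With 4 regions, in the *Pi16*-led region of 206 spots, *Ccl3* was at 4.21 and *Ccl4* at 2.97, above *Ccl6* (2.09) and *Ccl9* (1.71). In the *Pi16*-rich region *Ccl3* was 2.52 times the rest (1.76 to 3.56), *Ccl6* 1.95 times (1.61 to 2.33), *Ccr2* 1.86 times (1.31 to 2.57) *Ccl4* 1.81 times (1.39 to 2.34) and *Ccl9* 1.36 times (1.03 to 1.78), while *Ccl2* stood at 0.979 and *Ccl7* at 1.12. The 2 regions thus shared *Ccl3*, *Ccl4*, *Ccl6*, *Ccl9* and *Ccr2*, while the intervals of *Ccl2* and *Ccl7* lay above 1 in the *Cxcl5*-led region and not in the *Pi16*-rich one.

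*Ccl8* was highest in another region. It was at 489.6 CPM in the *Cxcl5*-led region against 988 in the rest, a ratio of 0.495 (0.428 to 0.571), and at 1311 CPM in the *Aldh3a1*-led region against 494 in the rest, a ratio of 2.66 (2.38 to 2.96), with 1036 of its 1521 UMIs. In that region *Ccl2*, *Ccl7*, *Ccl6*, *Ccl9* and *Ccr2* were at 0.368 to 0.469 times the rest. *Ccl8* was also raised in the *Pi16*-rich region, at 1090 CPM and 1.31 times the rest (1.12 to 1.53). The fibroblast markers were at 81582 CPM in the *Aldh3a1*-led region and 34497 in the *Cxcl5*-led one, while the macrophage markers were at 3725 and 6726. With 4 regions *Ccl8* stood at 1.22 times the rest in the region highest in granulation tissue markers, which was not led by *Cxcl5*. The depletion of *Ccl8* was thus seen only in the finer divisions (5 and 6 regions). In the muscle-rich region 8 genes were at 0.0350 times (*Ccl2*) to 0.355 times (*Ccl6*) the rest, and *Ccl11* was at 1.10 (0.591 to 1.93). *Ccl11* had no ratio whose interval lay apart from 1 in the *Cxcl5*-led (0.745, 0.401 to 1.31), *Aldh3a1*-led (0.884, 0.544 to 1.42), *Pi16*-rich (1.88, 0.952 to 3.46) or muscle-rich regions.

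**Figure D3:**
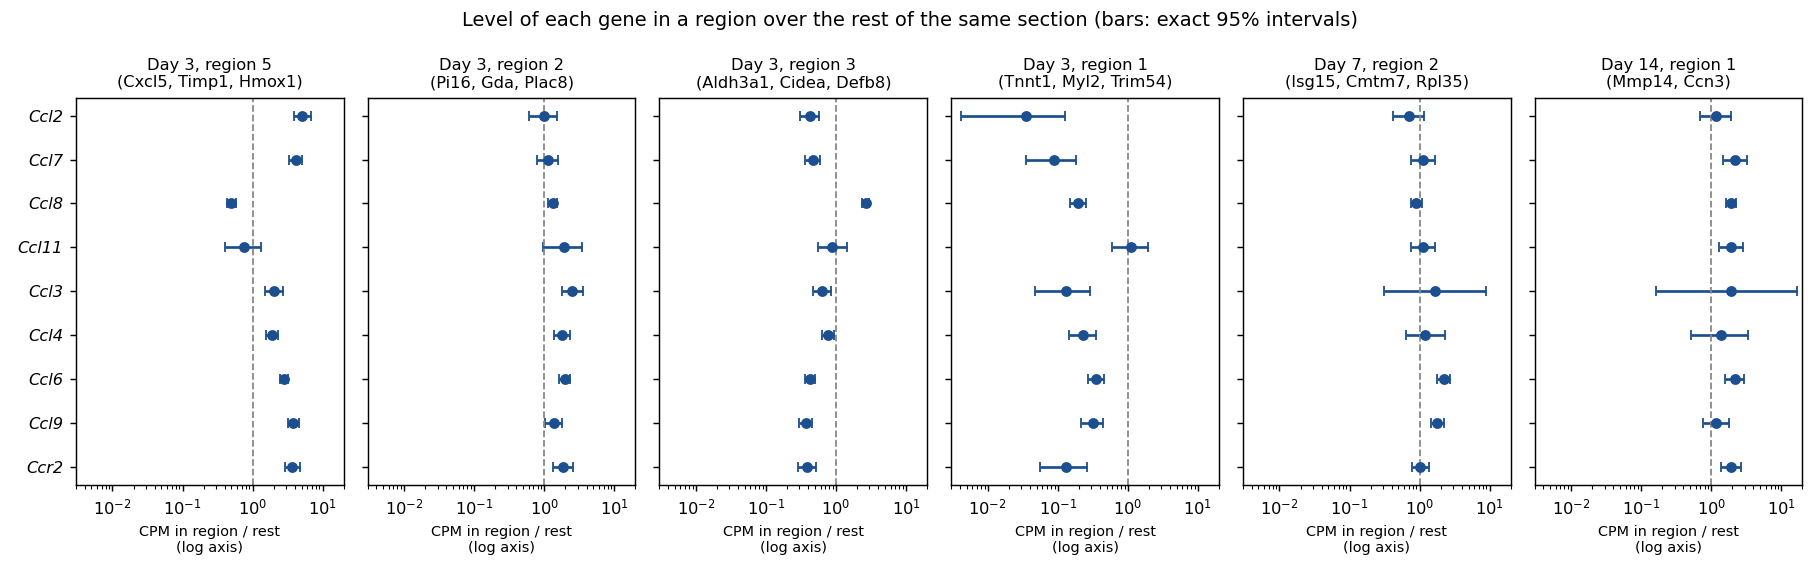
Ratio of CPM inside a region to CPM in the rest of its section for the 9 genes, in 4 regions of Day 3 and 1 each of Day 7 and Day 14, on a log axis, with exact 95% intervals as bars (counting error only). On Day 3 *Ccl2* (5.12) and *Ccl7* (4.12) lead in the *Cxcl5*-led region, where *Ccl8* is low (0.495), and *Ccl8* alone lies clearly above 1 in the *Aldh3a1*-led region (2.66).

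**Figure D4:**
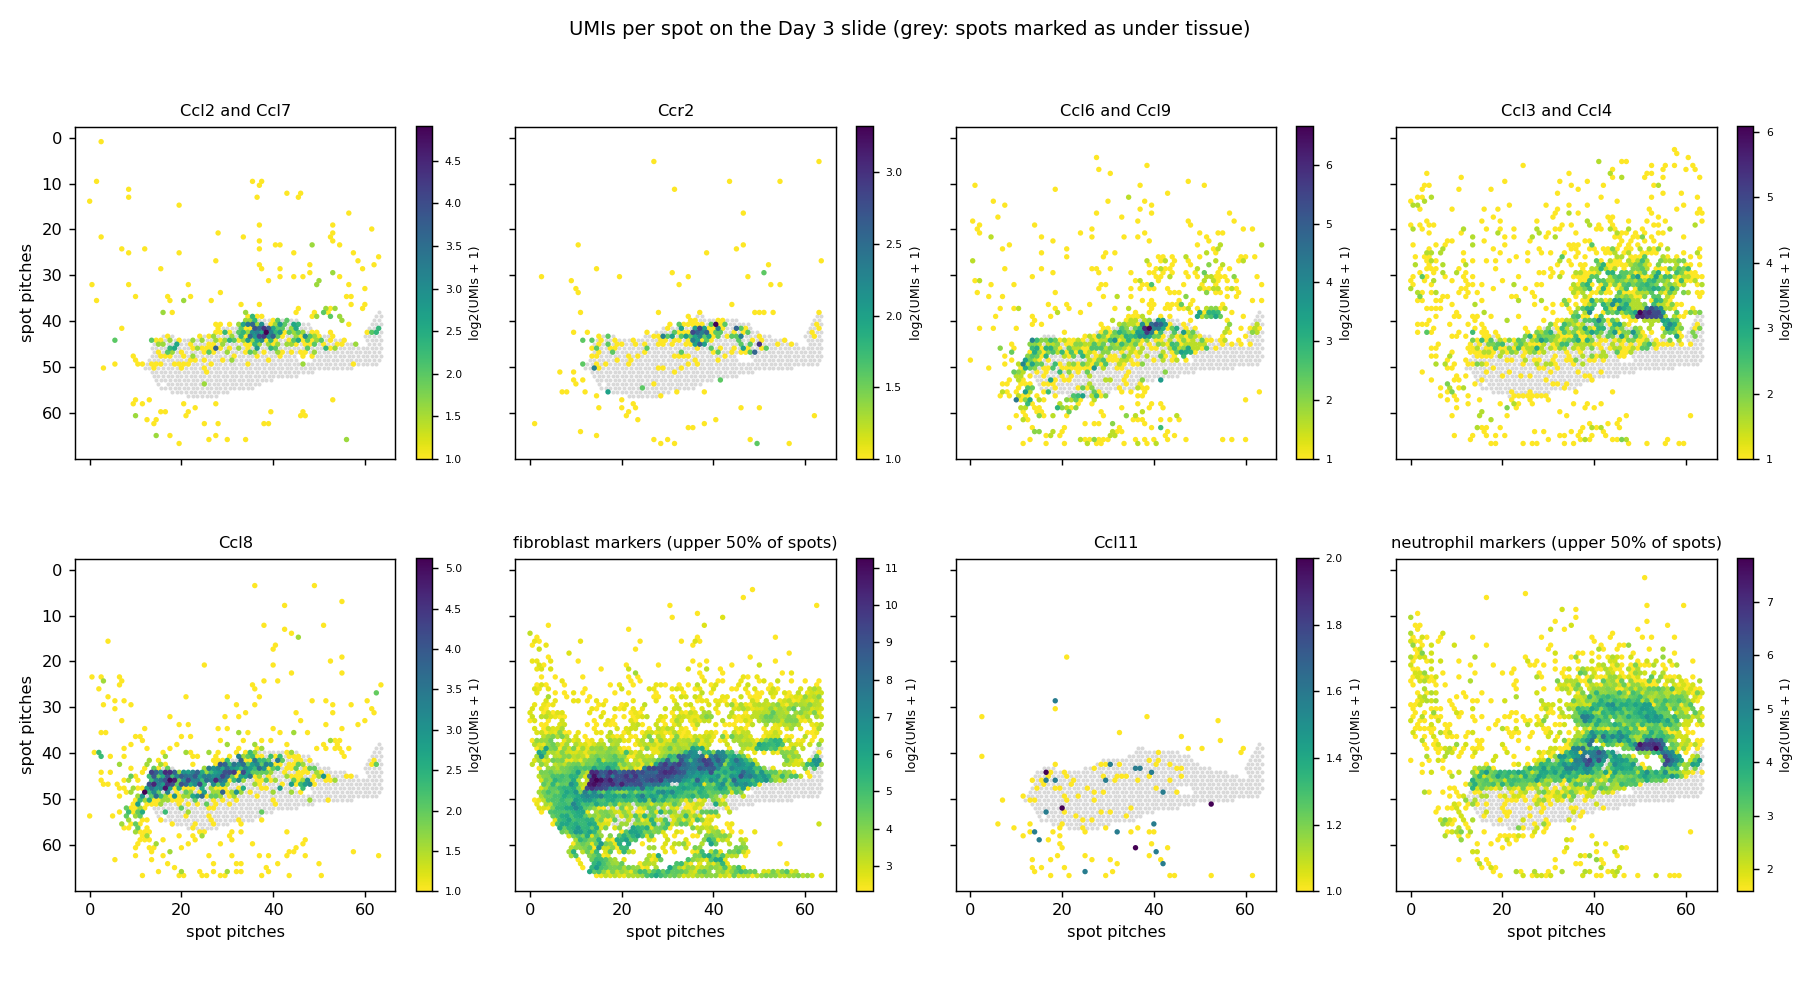
Maps of the Day 3 slide, with each spot placed by its position in spot pitches (both axes) and coloured by log2(UMIs + 1) of a gene, a gene pair or a marker list (for lists, the upper 50% of spots); spots marked as under tissue are grey. *Ccl2* with *Ccl7*, *Ccl6* with *Ccl9*, and *Ccr2* have their richest spots in the same part of the marked tissue, *Ccl8* lies along the band where the fibroblast markers are high, and *Ccl3* with *Ccl4* have their richest spots in an unmarked patch. The few UMIs of *Ccl11* are too sparse to show a pattern.

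Single spots followed the same lines. The richest Day 3 spot of *Ccl2* (13 UMIs) was also the richest of *Ccl7* (16 UMIs), in a deep spot of 22909 UMIs. Another spot of 19121 UMIs was the richest for both *Ccl6* (59 UMIs) and *Ccl9* (41 UMIs). *Ccl8* had 32 UMIs in its richest marked spot and 34 in an unmarked spot 1.0 pitch from the tissue. Moran's I, which is above 0 where neighbouring spots have like values, was 0.401 for *Ccl8* on Day 3, above 97.4% of the 3083 genes measured (median 0.0746). It was 0.303 for *Ccl2* (above 94.8%), 0.254 for *Ccl7* and between 0.166 and 0.191 for *Ccl3*, *Ccl4*, *Ccl6*, *Ccl9* and *Ccr2*. *Ccl11* was the exception, at -0.0242, above 1.43% of genes. Those genes have at least 100 UMIs, a minimum that *Ccl11* with 77 UMIs does not reach. Counts this few cannot show whether its molecules were scattered or clustered.

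On the later days the regional differences were smaller. On Day 7, in the region of 105 spots led by *Isg15* and *Cmtm7*, which had the highest level of granulation tissue markers, *Ccl6* was at 135 CPM against 61.0 in the rest (ratio 2.21, 1.80 to 2.71) and *Ccl9* at 98.8 against 54.8 (1.80, 1.44 to 2.26). The intervals of the other members there held 1. On Day 14, in the corresponding region of 253 spots with *Mmp14* and *Ccn3* among its leading genes, *Ccl7* (2.18), *Ccl6* (2.16), *Ccr2* (1.94), *Ccl8* (1.91, 1.62 to 2.24) and *Ccl11* (1.89, 1.27 to 2.79) were higher than in the rest. *Ccl9* differed from *Ccl6* on Day 14 in being higher in the muscle-rich region (2.19, 1.34 to 3.46), where *Ccl2* (0.227), *Ccl7* (0.240) and *Ccl8* (0.404) were low.

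Correlations across spots are given as a description. They use the 520 Day 3 spots under tissue with at least 500 UMIs and the log of depth-scaled UMIs, and the spots share 1 section, differ in depth and lie next to each other. *Ccl8* went most closely with the fibrillar collagens *Col1a2* (r = 0.57), *Col1a1* (0.55) and *Col3a1* (0.51), then with the complement genes *C1qb* (0.50) and *C4b* (0.47). Against summed lists, *Ccl8* stood at 0.57 with the fibroblast markers, 0.51 with the macrophage markers and 0.39 with the resident macrophage markers. *Ccl8* thus correlated with collagen RNA and with macrophage RNA, each taken alone. Whether the same spots were rich in both was not tested. After thinning to 1000 UMIs its collagen correlations were 0.46, 0.46 and 0.39.

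*Ccl6* had as its closest genes *Ctsb* (0.45), a lysosomal protease, *Apoe* (0.41), *C1qa* (0.40), *Crip1* (0.40) and *C1qc* (0.39), and it stood at 0.47 with the macrophage markers. The closest gene to *Ccl9* was *Ccl6* itself (0.33). *Ccl2* went with *Timp1* (0.36), the neutrophil gene *S100a8* (0.35), *Ccl7* (0.34), *Srgn* (0.34) and *Cxcl2* (0.33), and *Ccl7* with *Timp1* (0.37), *Lgmn* (0.37), *Ccl2* (0.34), *Actb* (0.34) and *Saa3* (0.33). The Ccr2 ligands thus shared *Timp1* and each other among their closest genes. *Ccr2* had weak partners, the highest being *Actb* and *Srgn* (0.32 each). With the counts of each spot summed with those of its neighbours, *Ccr2* stood at 0.69 with the inflammatory monocyte markers, against 0.28 in single spots. Such windows overlap and share spots.

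*Ccl3* and *Ccl4* had neutrophil and activation genes as partners. Under tissue *Ccl3* went with *Srgn* (0.42), *Cxcl2* (0.39), *S100a9* (0.37), *Itgam* (0.33) and *Fxyd5* (0.32), and *Ccl4* with *S100a8* (0.42), *Srgn* (0.42), *H2-K1* (0.35), *Slc2a3* (0.34) and *S100a9* (0.34). In the 674 unmarked Day 3 spots with at least 500 UMIs the correlations were higher. *Ccl4* stood there at 0.67 with *Cxcl2*, 0.66 with *S100a8* and 0.65 with *Il1b*, and *Ccl3* at 0.61 with *Il1b* and *Cxcl2*. Against the neutrophil markers *Ccl4* was at 0.41 under tissue and 0.65 outside, and *Ccl3* at 0.39 and 0.55. The pair *Ccl3* and *Ccl4* correlated at 0.29 under tissue and 0.57 outside. Outside tissue these correlations rest on more UMIs of both genes and were not thinned. As shares of spots, 65.7% of the spots with *Ccl3* also held *Ccl4* under tissue and 49.4% outside. *Ccl4* itself was in 230 of the 664 marked spots and 668 of the 4328 unmarked ones. These shares also take in spots under 500 UMIs, so they cannot be set beside the correlations.

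These correlations are moderate and in part set by sparse counts. Of the 40 pairs of a member and a close gene on Day 3, 5 remained at 0.3 or above after thinning. The correlation of *Ccl2* with *Ccl7* was 0.34 in single spots, 0.14 after thinning and 0.65 with neighbouring spots summed, that of *Ccl6* with *Ccl9* 0.33, 0.25 and 0.63, and that of *Ccl2* with *Ccr2* 0.28, 0.21 and 0.63. *Ccl2* and *Ccl8*, which lie in 1 gene cluster, correlated at 0.10 only. On Day 7 the highest correlation of any member was 0.28 (*Ccl9* with *C3ar1*), and on Day 14 *Ccl8* kept weak correlations with *Col1a1* (0.35), *Col1a2* (0.34) and *Col3a1* (0.32), which were 0.10, 0.12 and 0.05 after thinning.

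The receptors and signals around the set were counted from lists made up by function. Among all genes counted, 9.74% were at least 2-fold higher and 7.89% at least 2-fold lower on Day 7 than on Day 3. On Day 14, 8.14% were at least 2-fold lower than on Day 3. Of 13 chemokine receptors and scavenger receptors, 8 passed the count minimum for Day 7 over Day 3. *Ccr1* and *Ccrl2* were among 3 at least 2-fold lower, and *Ccr7* and *Cx3cr1* were at least 2-fold higher, with a median log2 ratio of -0.96. *Ccr1*, the receptor for *Ccl3*, *Ccl6* and *Ccl9*, was at 48.5 CPM on Day 3 (86 UMIs), 5.85 on Day 7 (26 UMIs) and 1.95 on Day 14 (9 UMIs). On the Day 3 slide *Ccr1* was higher outside the marked tissue, as *Ccl3* and *Ccl4* were, at 106 CPM (180 UMIs) and a ratio of 2.18 (1.68 to 2.85). Under tissue *Ccr1* thus had lower values on each later day, as *Ccl6* and *Ccl9* did. *Ccl3* was lower after Day 3 too, but its 8 and 5 UMIs do not separate Day 7 from Day 14.

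Other CC chemokines did not share that course as a group. Of 13 listed, 10 were counted for Day 7 over Day 3, with 2 lower (*Ccl12* and *Ccl24*), 5 higher and a median log2 ratio of 1.17. *Ccl5*, made mainly by T cells and natural killer cells, was at 3.39 CPM on Day 3 (6 UMIs), 23.0 on Day 7 (102 UMIs) and 59.4 on Day 14 (274 UMIs), the reverse of the members. *Ccl24*, another eotaxin, was at 33.9, 6.53 and 7.59 CPM (60, 29 and 35 UMIs), and *Ccl12*, the neighbour of *Ccl8*, at 17.5 CPM on Day 3 (31 UMIs) with 6 and 15 UMIs on the later days.

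Of 10 upstream cytokines and NF-kappaB feedback genes, 9 were counted, and 4 were at least 2-fold lower on Day 7 than on Day 3 (*Il1b*, *Tnf*, *Nfkbia* and *Birc3*; median log2 ratio -0.67). *Il1b* was at 264, 3.15 and 4.55 CPM (468, 14 and 21 UMIs), so that like *Ccl3* it had few UMIs after Day 3. *Nfkbia*, the inhibitor that NF-kappaB induces, was at 189.6, 81.3 and 222 CPM and so was not lower on Day 14. Of 6 monocyte growth factor genes, 5 were counted, with 3 lower on Day 7 and 4 on Day 14 than on Day 3 and none higher. *Csf1r*, which encodes the macrophage growth factor receptor, was at 226, 113 and 79.8 CPM. Of 9 type 2 genes, 5 were counted, and *Il33*, *Tslp*, *Il4ra* and *Retnla* were lower on Day 7. The type 2 cytokines *Il4*, *Il5* and *Il13* had 1 UMI among them in the 3 sections under tissue.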

How the data were processed

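The authors made the count tables with Space Ranger 1.3.0 on mm10, per the submitters' processing notes, and deposited raw UMI counts of 32285 genes in 4992 spots per slide, with the tissue mark of each spot. The annotation release is not given in the sources used here. All members, lists and regions compared were chosen with earlier results of these data known. UMIs were summed over spots under or outside the mark. Sums carry exact Poisson, shares exact binomial (Clopper-Pearson) and ratios exact conditional binomial 95% intervals, for counting error only. A gene was counted with at least 20 UMIs over both sides and called at 2-fold. Spots were thinned to 1000 UMIs without replacement. Regions came from k-means with 5 centres. Correlations used log1p of UMIs per 10000 in spots with at least 500 UMIs. The named partners are the 5 genes with the highest r for each member with at least 100 UMIs in a section, among genes with at least 100 UMIs; pathway genes with at least 50 UMIs in all could be named, and *Ccr3*, *Ccr8*, the type 2 cytokines and region leaders were named after their values were seen. Intervals were tested on simulated counts. Alternatives were TMM (edgeR 4.0.16), DESeq2 1.42.0 size factors, other scalings, filters, thinning depths and numbers of regions. Calculations used Python 3.11.15, numpy 2.4.6, pandas 2.3.3, scipy 1.17.1, scikit-learn 1.9.0, matplotlib 3.10.9 and R 4.3.3. No doublet caller was run, and no cell-type makeup is given. Some genes of the lists and some leading genes of regions are not reported here.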

Additional observations from a re-analysis of the deposited data

Results flagged for a closer look

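The place of *Ccl4* relative to the tissue mark differed between slides. Its CPM outside marked tissue over that under it came to 3.50 in the Day 3 section, against 0.107 in the Day 7 and 0.469 in the Day 14 section. It was flagged because Day 3 moves one way and both later days the opposite way. The difference between days was not tested, since each day is 1 section, and the Day 7 and Day 14 values rest on 7 and 12 UMIs outside tissue.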

How the results depend on the processing

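Each day had 1 section, so intervals hold counting error only. The between-day counts (8, 8 and 2 members at least 2-fold lower) moved by no more than 1.5 times under any alternative run, but for Day 14 over Day 7 the members differed: *Ccl4* and *Ccl6* by the mean of spot CPM, *Ccl3* and *Ccl9* over all spots of the slide, and *Ccl4*, *Ccl6* and *Ccl9* with TMM or DESeq2 factors. No paired analysis was possible because each day has 1 section. The other counts moved as follows, and the cause was not tested except where the setting removes counts or spots. Members at least 2-fold lower outside tissue on Day 3 (5) were 2 by the mean of spot CPM and 3 with TMM or DESeq2 factors. On Day 7 (5) they were 3 by the mean of spot CPM, 2 without mitochondrial, haemoglobin and muscle genes in the total, 1 with TMM and 2 with DESeq2. On Day 14 (3) they were 0 under these 3 last settings. Members higher outside on Day 3 (2) were 1, *Ccl4*, in spots with at least 500 UMIs. *Ccl2* and *Ccl6* outside over under tissue on Day 3 turned to 1.40 and 1.06 by the mean of spot CPM. Members with a higher share of spots on Day 3 than on Day 7 (8) were 3 without thinning (*Ccl3*, *Ccl4* and *Ccl6*), where depth differs. With 4 regions the Day 3 region highest in sebaceous gland markers had 2 raised members instead of 1, *Ccl2* turning to 1.72, *Ccl7* to 1.12 and *Ccl9* to 1.21 there. In the region highest in granulation tissue markers, which then had other leading genes, *Ccl8* turned to 1.22. Member and partner pairs at r of 0.3 or above were 40, 0 and 3 on Days 3, 7 and 14. They were 5 on Day 3 and 0 on Day 14 after thinning, 15 on Day 7 and 20 on Day 14 with neighbours summed, and 1 on Day 7 by rank. Members with Moran's I of 0.1 or above on Day 7 (3) and Day 14 (1) were 0 after thinning, with *Ccl6* at -4.51e-05 on Day 7 and *Ccl8* at -0.0457 on Day 14. Of the single CPM ratios, 381 stayed within their interval, 76 moved and 2 reversed.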

Other observations

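On Day 14, 1 unmarked spot of 6199 UMIs was the richest unmarked spot for *Ccl6* (4 UMIs), *Ccl9* (7 UMIs) and *Ccr2* (3 UMIs) together. On Day 7, 1 spot of 16587 UMIs was the richest under tissue for *Ccl8* (12 UMIs) and *Ccl11* (4 UMIs), which lie in the same gene cluster. The neutrophil markers were again higher outside than under tissue on Day 14 (268 and 121 CPM, a ratio of 2.21), where *Ccl3* was not seen outside tissue and *Ccl4* had 12 UMIs there.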
